A study of Mus musculus with 6 samples.

Results

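The natriuretic peptide system of the heart was followed here through 9 genes: the peptides Nppa, Nppb and Nppc, the receptors Npr1, Npr2 and Npr3, and the proteases Corin, Furin and Mme, which activate or degrade the peptides. They were chosen by name as the members of this system, and all 9 were measured, out of 18193 genes on the array. Expression was measured on 6 short-oligonucleotide arrays of ventricular tissue from mice aged 8 weeks, 3 wild-type and 3 transgenic. The transgenic mice, called caAkt, express an activated form of the kinase Akt constitutively and only in the heart, and the study set out to describe the changes of gene expression behind their heart failure. Which promoter drives the transgene is not given in the sources used here. Whether the arrays of a genotype hold RNA of different hearts is not stated, and p-values here reflect array-to-array spread alone, possibly technical.

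Atrial natriuretic peptide (Nppa) and B-type natriuretic peptide (Nppb) are hormones that stretched heart muscle cells release as larger precursors. In the adult mouse, Nppa is mainly an atrial gene, and its return in the ventricle is a classical mark of hypertrophy and failure. Both peptides bind the receptor encoded by Npr1, whose intracellular domain makes the messenger cGMP, and so relax vessels and promote salt excretion. C-type natriuretic peptide (Nppc) acts through the related cyclase Npr2, while Npr3 lacks the cyclase and removes all these peptides from the circulation. The membrane protease corin cuts the Nppa precursor, furin cuts the precursors of the other peptides, and neprilysin (Mme) degrades the mature hormones.

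Nppa and Nppb are neighbours on mouse chromosome 4, in the same orientation, and both rose in caAkt hearts, so the 250 bases before a transcript start of each are shown. The sequences come from RefSeq promoters of assembly GRCm38.p6, on the plus strand, at chr4:148000472-148000721 for Nppa and chr4:147985650-147985899 for Nppb. The Nppb gene as a whole begins upstream of the start used there, so its window overlaps the first bases of the annotated gene. Capitals mark matches, on either strand, to the GATA factor motifs AGATAA and TGATAA, the NKX2-5 motif CACTTNA, the TEAD motif CATTCC and the TATA box TATAAA.
Nppa: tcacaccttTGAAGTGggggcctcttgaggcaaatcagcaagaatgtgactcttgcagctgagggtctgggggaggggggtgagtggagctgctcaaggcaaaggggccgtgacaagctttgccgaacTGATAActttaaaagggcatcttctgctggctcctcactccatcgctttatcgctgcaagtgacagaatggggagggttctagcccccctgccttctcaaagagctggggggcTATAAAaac
Nppb: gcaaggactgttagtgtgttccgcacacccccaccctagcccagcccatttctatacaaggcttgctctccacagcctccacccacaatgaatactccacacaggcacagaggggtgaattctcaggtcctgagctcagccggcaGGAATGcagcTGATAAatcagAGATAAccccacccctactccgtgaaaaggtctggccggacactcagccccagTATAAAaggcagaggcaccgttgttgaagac

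Both promoters hold TGATAA, which 7.94% of the 32851 mouse promoters of the same length hold, and both hold TATAAA (12.4% of promoters). These motifs were added after the sequences were seen. Nppa also holds the NKX2-5 motif on the minus strand (10.1% of promoters), and Nppb holds AGATAA (9.99%) and, on the minus strand, CATTCC (12.6%). An E-box, CANNTG, occurs in both, as in 66.2% of promoters, and in Nppb it shares bases with TGATAA. Neither window holds a GC box (GGGCGG, 32.7% of promoters), the AP-1 motif TGANTCA (6.75%) or an SRF CArG box (1.47%). A match is a run of letters and does not show that a factor binds there.

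The arrays were alike in scale. Their median log2 values lay between 6.77 and 6.80 and their highest values between 15.32 and 15.45. Correlations over all probe sets were 0.995 to 0.997 within a genotype and 0.983 to 0.985 between genotypes. Akt1 rose from 9.92 ± 0.22 to 15.11 ± 0.04 on the log2 scale (SD, 3 arrays per genotype) at its probe set with the highest mean. The group label caAkt names Akt but no isoform. Another Akt1 probe set fell by 0.29 ± 0.08 (SE, limma adjusted p = 0.0248 over all probe sets). The remaining Akt1 probe sets, at -0.21 and 0.08, were not called. As a gauge of background, the 95th percentile of 39 olfactory receptor genes, which ventricle is not known to use, was 6.87 in wild-type and 6.83 in caAkt. The ventricular light chains Myl2 (15.38 and 15.25) and Myl3 (15.22 and 14.90) were near the top of the scale in both groups, as the tissue label requires.

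Of the 9 natriuretic peptide genes, 3 rose in caAkt hearts, 2 fell and 4 were not called (limma, adjusted p under 0.05 over all genes). The cardiac peptides Nppa and Nppb and the clearance receptor Npr3 rose, by 2.42 ± 0.12, 1.16 ± 0.16 and 1.28 ± 0.13 on the log2 scale (SE). The degrading protease Mme fell by 1.69 ± 0.20 and the activating protease Corin by 0.44 ± 0.14. Among all 18193 genes 28.5% were called, 16.1% higher and 12.4% lower, against 55.6%, 33.3% and 22.2% of these 9. The genotypes did not overlap in 6 of the 9 genes (66.7%), 3 higher and 3 lower, and for 42.4% of all genes (21.4% higher, 21.1% lower). The median log2 fold change of the 9 was -0.042 and that over all genes -0.036, while the mean of the 9 was 0.27. Nppc and Npr1 were not above the background gauge in either genotype, which leaves 7 genes above it in at least 1 of them.

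**Figure D1:**
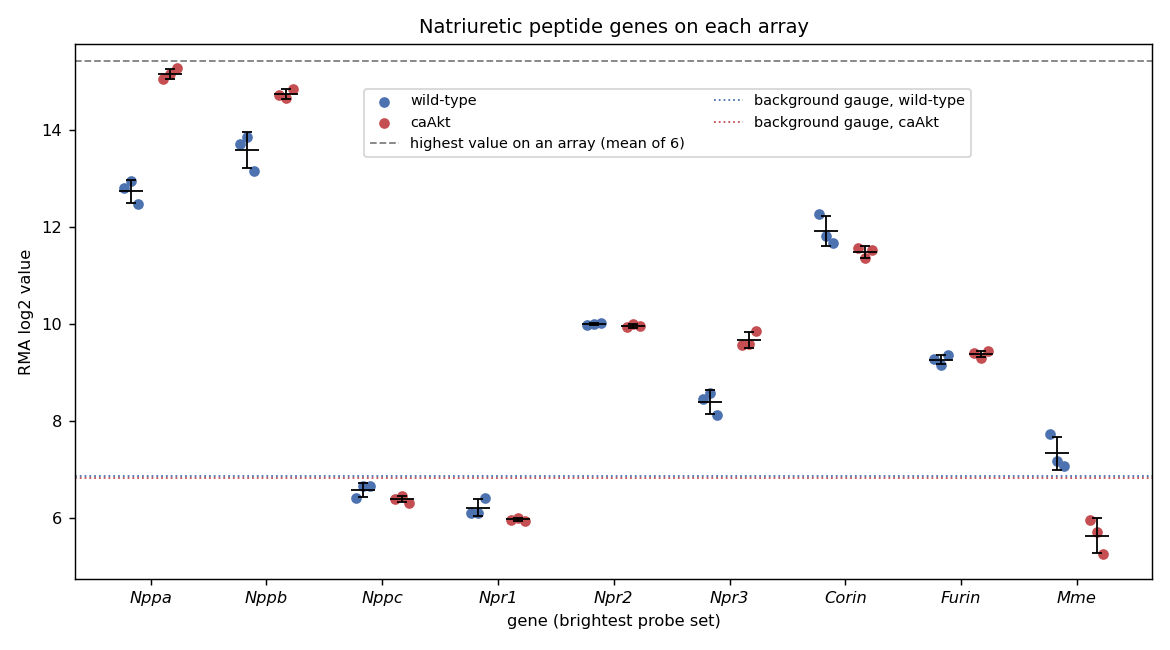
RMA log2 value of each of the 9 genes (brightest probe set) on the 3 wild-type and 3 caAkt arrays, with horizontal bars for group means and error bars for SD. The dashed line is the mean of the highest value of the 6 arrays and the dotted lines are the background gauge. Nppa rises from 12.73 to 15.16, next to the top of the scale, and Mme falls from 7.33 to 5.64, below the gauge.

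Nppa was bright in wild-type hearts and near the top of the scale in caAkt hearts. Its log2 values were 12.80, 12.94 and 12.47 in wild-type hearts and 15.05, 15.15 and 15.27 in caAkt hearts. Every caAkt array thus lay at least 2.11 above every wild-type array, and the spread within a genotype was at most 0.47. The log2 fold change was 2.42 ± 0.12 (SE, limma adjusted p = 2.14e-06). This corresponds to 5.36-fold, with a 95% interval of 4.44 to 6.46-fold. The caAkt mean was 0.30 below the highest value of an array and is near saturation, so the fitted fold may understate the change. Nppa is represented by 1 probe set, so no second probe set could be set beside it.

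Nppb was bright in both genotypes. Its log2 values were 13.72, 13.86 and 13.16 in wild-type hearts and 14.72, 14.65 and 14.85 in caAkt hearts. The groups did not overlap, with 0.79 between the lowest caAkt and the highest wild-type array, and the third wild-type array stood apart from the other two by more than the whole caAkt range of 0.19. The log2 fold change was 1.16 ± 0.16 (SE, limma adjusted p = 0.000621). This corresponds to 2.24-fold, with a 95% interval of 1.74 to 2.87-fold. The caAkt mean was 0.71 below the top of the scale, so the fitted fold of Nppb may understate the change too. The scale ends within 1 log2 unit of both peptides in caAkt hearts, so the values cannot show whether Nppa and Nppb differ in how much they rose.

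Nppa is abundant in the atria, and the arrays differed in how much atrial signal they held. Of 6 atrial marker genes, 1 rose (Dkk3), 1 fell (Kcnj3) and 4 were not called, with a median log2 fold change of -0.35. Their summed linear signal was 1571 to 8240 in wild-type and 2120 to 5131 in caAkt hearts, and Bmp10 was not above the background gauge (6.65 and 6.46). Sarcolipin (Sln), a calcium pump inhibitor of atrial muscle, had log2 values of 10.50, 7.24 and 8.46 in wild-type and 8.70, 6.32 and 8.54 in caAkt hearts. The atrial light chain Myl7 had 11.73, 8.79 and 10.31 against 9.92, 7.16 and 9.67. Myl4, a further atrial light chain, had 11.38, 8.58 and 10.41 against 11.50, 10.08 and 11.59. The 3 genes moved together over the arrays, highest on the first wild-type array among wild-type hearts and lowest on the second array of each genotype, and their groups overlapped.

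Beside these markers, the peptides varied less from array to array, though their caAkt values lie near the top of the scale, where spread is compressed. Wild-type array 2, with the lowest Sln, Myl7 and Myl4 of the wild-type hearts, had the highest Nppa (12.94) and Nppb (13.86) among them. Among caAkt hearts, array 2 was lowest in all 3 markers and in Nppb (14.65), array 3 was highest in Myl4 and Nppb (14.85), and Nppa was lowest on array 1 (15.05). Between the second arrays of the genotypes, lowest in these markers, the difference was 2.21 for Nppa and 0.79 for Nppb. With the mean log2 value of the 3 markers as a term in the fit, chosen after seeing the data, the log2 fold change was 2.41 ± 0.13 for Nppa (limma adjusted p = 6.42e-06) and 1.16 ± 0.17 for Nppb (0.00125). This term ran from 8.20 to 11.21 in wild-type and from 7.85 to 10.04 in caAkt hearts, an overlap that limits how far it can move the genotype difference. In that fit Myl4 was higher in caAkt hearts (1.30 ± 0.16) and Myl7 (-0.89 ± 0.12) and Sln (-0.41 ± 0.12) lower. The term is the mean of these same 3 genes, so their differences must cancel out there and differing signs were fixed in advance. With genotype alone in the fit, Myl4 (0.93), Myl7 (-1.36) and Sln (-0.88) were not called. The part of atrial tissue in the peptide values was not tested. Of the atrial markers called in the fit of genotype alone, Dkk3 rose by 1.24 ± 0.17 and Kcnj3, an atrial potassium channel subunit, fell by 0.51 ± 0.13. The call of Kcnj3 was lost without wild-type array 1 or 3 or caAkt array 1 or 3 (adjusted p 0.0613 to 0.0778). Of its 3 dimmer probe sets, 2 fell by 1.11 ± 0.18 and 1.05 ± 0.19 in the fit of all probe sets.

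**Figure D2:**
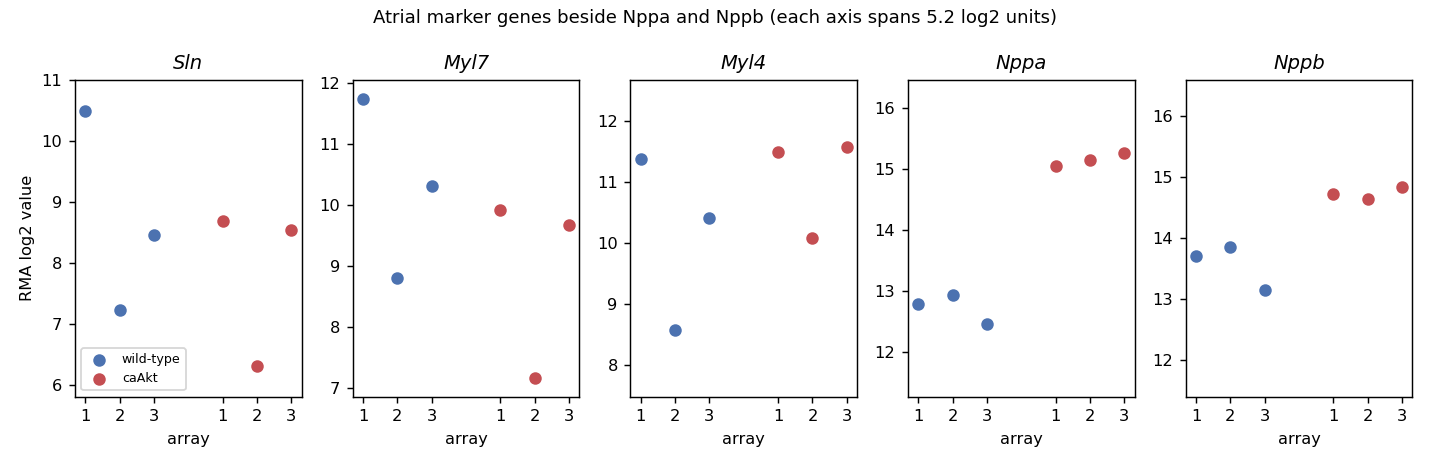
RMA log2 values of the atrial markers Sln, Myl7 and Myl4 beside Nppa and Nppb on each array, 3 wild-type and 3 caAkt, with axes of equal span. Sln ranges over 3.27 within wild-type and 2.38 within caAkt hearts while Nppa ranges over 0.47 and 0.22. In caAkt hearts Nppa and Nppb lie near the top of the scale, where spread is compressed. Of the genes shown, only Nppa and Nppb separate the genotypes.

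The third peptide, Nppc, is chiefly a product of endothelium, brain and cartilage. Its log2 values were 6.41, 6.66 and 6.67 in wild-type and 6.40, 6.46 and 6.32 in caAkt hearts, all under the background gauge, and the groups overlapped. The log2 fold change was -0.18 ± 0.09 (95% interval -0.38 to 0.01, limma adjusted p = 0.149). Without wild-type array 1 it was -0.27 with an adjusted p of 0.0407, still at background signal.

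The receptors differed among themselves. Npr3, the clearance receptor, which in the mouse heart marks the endocardium, had log2 values of 8.46, 8.59 and 8.13 in wild-type and 9.57, 9.60 and 9.86 in caAkt hearts. All caAkt values lay at least 0.98 above all wild-type values. This gave a log2 fold change of 1.28 ± 0.13 (SE, limma adjusted p = 8.87e-05) or 2.43-fold, with a 95% interval of 1.99 to 2.97-fold. The values were far from both ends of the scale, 5.77 below the top in caAkt hearts. The other two probe sets of Npr3 also rose. In the fit of all probe sets, one of them increased by 1.39 ± 0.10 (limma adjusted p = 2.34e-05), from 5.89 ± 0.04, below the gauge, to 7.27 ± 0.18. The last one increased by 0.57 ± 0.11 (limma adjusted p = 0.00619), from 6.54 ± 0.16, also below the gauge, to 7.11 ± 0.17. All 3 were higher in caAkt hearts, but the dimmer pair started from background signal, so only the brightest gives a size. Among all probe sets 23.4% were called.

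The cyclase receptors were not called. Npr2, the receptor of C-type peptide, had nearly the same log2 value on every array, 9.99, 10.01 and 10.02 in wild-type and 9.93, 9.998 and 9.96 in caAkt hearts. Its log2 fold change was -0.04 ± 0.06, and the 95% interval of -0.19 to 0.10 leaves room for a change of at most 1.14-fold in that fit. Npr1, the receptor of the cardiac peptides, had 6.11, 6.11 and 6.41 in wild-type and 5.97, 6.01 and 5.95 in caAkt hearts. The caAkt values were all lower, by at least 0.10, but every value lay under the background gauge. Its log2 fold change of -0.23 ± 0.09 (limma adjusted p = 0.0907, 95% interval -0.44 to -0.03) therefore describes a probe set at background and gives no level of the receptor. In bulk tissue, fewer cells of a type and less RNA per cell cannot be told apart for any of these genes.

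**Figure D3:**
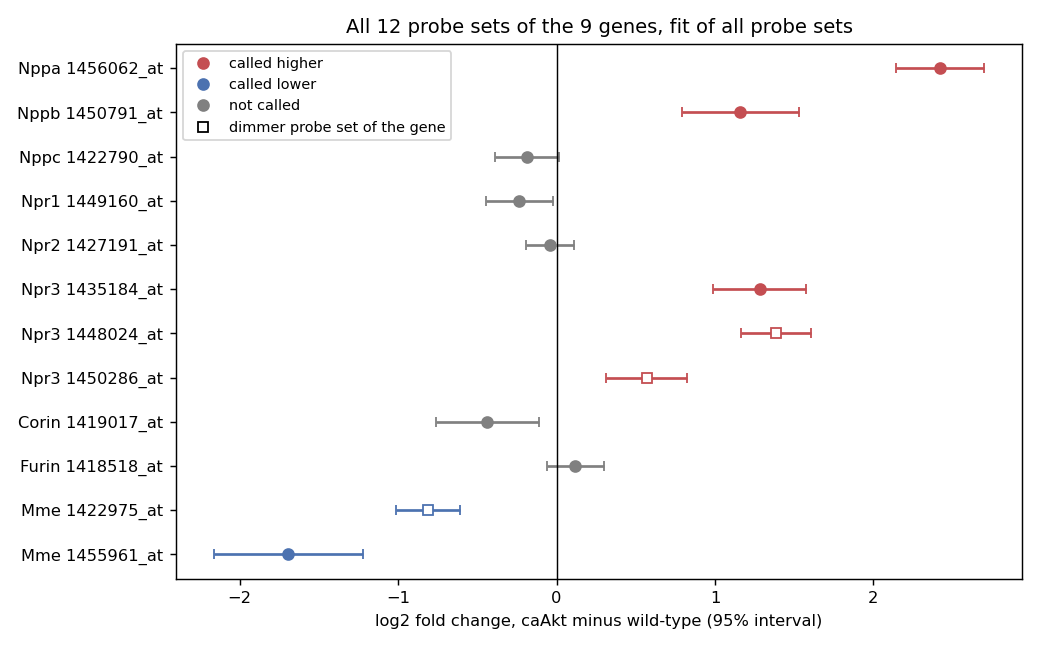
Log2 fold change (caAkt minus wild-type) with 95% intervals of all 12 probe sets of the 9 genes, from the fit of all probe sets, where filled circles are the brightest probe set of a gene and open squares the dimmer ones. The 3 Npr3 probe sets are all above 0 and both Mme probe sets below it. Corin, called in the fit of 1 probe set per gene (adjusted p = 0.0449), is not called here (0.0576).

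Of the activating proteases, Corin was lower in caAkt hearts by a small amount. Its log2 values were 12.27, 11.82 and 11.68 in wild-type and 11.57, 11.35 and 11.53 in caAkt hearts. The groups were separated by 0.11, less than the spread of 0.59 among the wild-type arrays. The log2 fold change was -0.44 ± 0.14 (SE, limma adjusted p = 0.0449), 1.35-fold with a 95% interval of 1.09 to 1.69-fold. This call was lost when any single array other than wild-type array 3 was left out (adjusted p 0.0709 to 0.155), and without wild-type array 1 the log2 fold change was -0.27. Furin, the convertase of the secretory pathway, had 9.28, 9.17 and 9.36 in wild-type and 9.40, 9.31 and 9.44 in caAkt hearts. Those groups overlapped, and the log2 fold change of 0.12 ± 0.08 was not called (adjusted p = 0.290, 95% interval -0.06 to 0.29).

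Mme, which encodes neprilysin, the protease that degrades natriuretic and many other small peptides, fell. Its log2 values were 7.73, 7.18 and 7.08 in wild-type and 5.96, 5.71 and 5.25 in caAkt hearts. Every caAkt array lay at least 1.12 below every wild-type array. The log2 fold change was -1.69 ± 0.20 (SE, limma adjusted p = 0.000276). The wild-type mean of 7.33 was above the background gauge and the caAkt mean of 5.64 below it, where 64.1% of the olfactory receptor genes lay lower still. The fitted value is thus a difference from background signal, and no fold is given. The second probe set was lower in caAkt hearts as well, from 6.70 ± 0.08 to 5.89 ± 0.14 (log2 fold change -0.81 ± 0.09, adjusted p = 0.000282 over all probe sets), with both means under the gauge.

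Markers of other cell types moved with genotype as well, and their part in the changes of Npr3, Mme and the peptides was not tested. All 6 macrophage markers rose, with a median log2 fold change of 1.31 and a summed linear signal of 4378 to 5260 in wild-type and 10110 to 12610 in caAkt hearts. Of 6 fibroblast markers 5 rose and 0 fell (median 0.62), with sums of 18515 to 23116 and 39395 to 43274. Pdgfra among them was not called without wild-type array 3 or caAkt array 2 or 3 (adjusted p 0.0657 to 0.0703). The endocardial markers did not move as 1 group, as 1 of 4 rose (Plvap, 1.20 ± 0.07), 1 fell (Emcn, -0.38 ± 0.10) and the median was -0.20. Their sums overlapped, at 2269 to 2710 in wild-type and 2235 to 2591 in caAkt hearts, and Emcn lost its call without wild-type array 1 or 2 or caAkt array 1 or 2 (limma adjusted p 0.0676 to 0.0906). All macrophage, fibroblast and endocardial markers were above the background gauge in at least 1 genotype.

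The general and ventricular heart muscle markers that were called were all lower in caAkt hearts. Among those not called, Actc1 (15.32 to 15.45) and Tnnt2 (15.08 to 15.14) had higher means in caAkt hearts. Myl2 (15.38 to 15.25) and Myh6 (15.22 to 15.02) had lower ones. Of 6 cardiomyocyte markers 0 rose and 3 fell (median -0.27), with sums of 174119 to 192930 and 167465 to 172156, and of 4 ventricular markers 0 rose and 3 fell (median -0.45), with sums of 77322 to 84241 and 68708 to 71427. Among these were Irx4, a ventricular transcription factor (-0.73 ± 0.09), and Hey2 (-0.58 ± 0.07), the latter under the gauge. Of the cardiomyocyte markers 5 lie near the top of the scale, where a change is understated, and the remaining one, Ryr2 (-0.41 ± 0.13), lost its call without wild-type array 1 or 2 or caAkt array 2 or 3 (adjusted p 0.124 to 0.156). Of 6 endothelial markers 1 fell and 0 rose (median -0.16, sums 17450 to 20735 and 15663 to 18433). Of 8 smooth muscle and pericyte markers 1 rose and 2 fell (median -0.07, sums 24656 to 28075 and 18561 to 24612). The rise of Tagln (0.46 ± 0.14) was not called without wild-type array 1 or 3 or caAkt array 2 or 3 (adjusted p 0.0829 to 0.124). Those that fell were Abcc9 (group means 12.65 and 10.96) and Kcnj8 (10.19 and 9.49), and both kept their call in all 18 settings tried. Of 3 measured neutrophil markers none was called by limma, nor had any an unadjusted p under 0.05 (median -0.41, sums 239 to 534 and 235 to 293), and S100a8 and S100a9 were under the gauge.

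Nppa and Nppb stood out from the genes around them on the chromosome. By the RefSeq gene table of GRCm38.p6, 9 of the 10 nearest protein-coding neighbours, counting 5 on each side, had a value. Clcn6, next to Nppa, which encodes a chloride and proton exchanger, had a log2 fold change of -0.05 ± 0.07 (limma adjusted p = 0.668). 2510039O18Rik, on the far side of Nppb, had -0.08 ± 0.16 (0.757). Mfn2, which encodes mitofusin 2, had 0.05 ± 0.07, Miip 0.06 ± 0.07, Agtrap -0.02 ± 0.08, Draxin -0.13 ± 0.09 and Mad2l2 0.13 ± 0.07, none of them called. Fv1, a retrovirus restriction gene, fell by 0.74 ± 0.16 (adjusted p = 0.00667). Plod1, a collagen-modifying lysyl hydroxylase, rose by 0.24 ± 0.07 (adjusted p = 0.0298), a call lost without any single array other than wild-type array 3 (adjusted p 0.0591 to 0.119). The immediate neighbours of the pair thus showed no difference of the size seen for Nppa or Nppb.

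**Figure D4:**
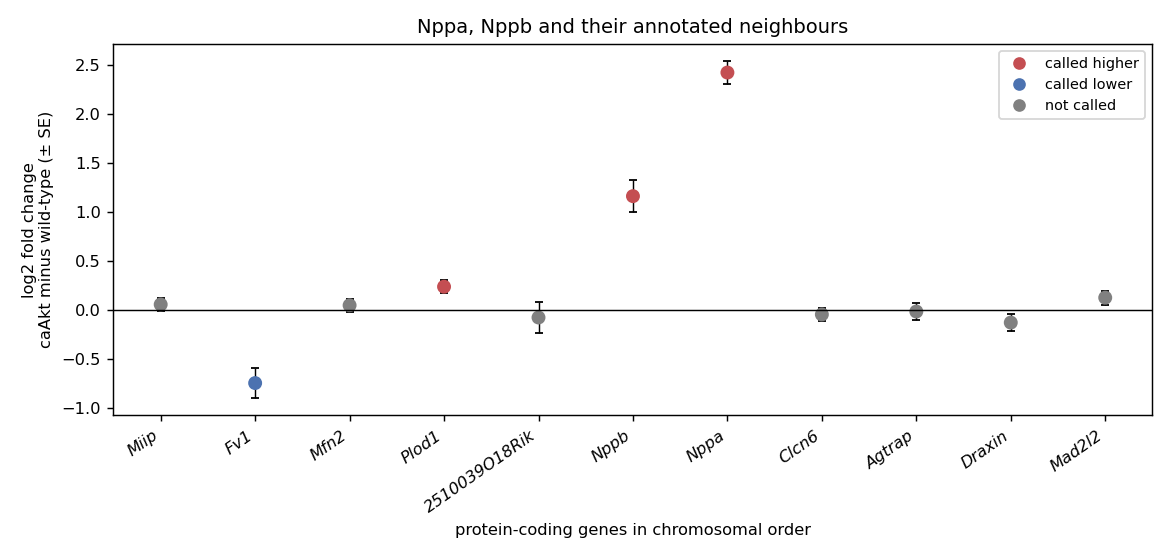
Log2 fold change (caAkt minus wild-type, ± SE) of Nppa, Nppb and the 9 measured protein-coding genes around them, in chromosomal order. The peptides stand at 2.42 and 1.16, while the genes beside them, 2510039O18Rik and Clcn6, stand at -0.08 and -0.05.

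Downstream of the receptors, cGMP activates the kinase Prkg1 and is broken down by phosphodiesterases. Of 15 measured genes of cGMP action and breakdown, 4 rose and 2 fell, with a median log2 fold change of 0.04 against -0.04 over all genes. Prkg1 itself rose by 0.51 ± 0.09 (SE, limma adjusted p = 0.00217), from 8.79 ± 0.11 to 9.30 ± 0.12. Its dimmer probe set rose by 1.17 ± 0.21, but from 6.36, under the gauge, so it gives no size. The phosphodiesterases Pde1a (0.70 ± 0.11) and Pde3b (0.49 ± 0.08) and the kinase substrate Vasp (0.39 ± 0.08) rose as well. Pde1a rose from a wild-type mean of 6.81, just under the gauge, to 7.51, so its rise gives no size either. A dimmer probe set of Pde1a under the gauge gave -0.03 and was not called. Rgs4, a brake on G protein signalling, fell by 0.67 ± 0.07 and the heart phosphodiesterase Pde3a by 0.52 ± 0.12. The dimmer probe sets of Pde3a, under the gauge, gave -0.29 and -0.17 and were not called. The cGMP phosphodiesterases Pde5a (0.07 ± 0.12), Pde9a (0.03 ± 0.08, under the gauge) and Pde2a (0.10 ± 0.08) were not called.

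The parallel route to cGMP runs through nitric oxide and the soluble guanylyl cyclase. Of its 6 measured genes 0 rose and 1 fell, with a median of -0.09. Nos3, the endothelial nitric oxide synthase, fell by 0.33 ± 0.10 (adjusted p = 0.0278), and was not called without wild-type array 2 or 3 or caAkt array 1 or 3 (adjusted p 0.0841 to 0.105). The cyclase subunits Gucy1a1 (0.05 ± 0.12) and Gucy1b1 (0.16 ± 0.08) were not called.

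Other peptide proteases went both ways, with 4 of 13 higher, 1 lower and a median of -0.07. Pcsk6, the convertase that activates corin, fell by 0.44 ± 0.10 (adjusted p = 0.00829), the same direction as Corin. Aminopeptidase N (Anpep) rose by 0.83 ± 0.14 and the fibroblast protease Fap by 0.38 ± 0.08. Pcsk5 rose by 0.39 ± 0.07 but lay under the gauge, and of its 4 other probe sets 1 rose (0.51 ± 0.10) and 3 were not called. Mbtps1 rose by 0.24 ± 0.07, a call lost without any single array other than caAkt array 3 (adjusted p 0.0507 to 0.0729), and its 2 other probe sets gave 0.51 and -0.20, neither called. Insulin-degrading enzyme Ide, which also cuts natriuretic peptides, was not called (0.16 ± 0.08).

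Of 7 measured genes of the secretory granule, 2 rose and 0 fell, with a median of 0.15. Pam, a main protein of the membranes of atrial granules, rose by 0.78 ± 0.21 (limma adjusted p = 0.0198), with group means of 6.31 ± 0.21 and 7.09 ± 0.46 (SD), and was not called without wild-type array 3 or caAkt array 1 or 3 (adjusted p 0.0714 to 0.0815). The wild-type mean of Pam was under the gauge, so its rise starts from background signal and gives no size. Secretogranin II (Scg2) rose by 1.53 ± 0.31 (limma adjusted p = 0.00576), from 4.93 to 6.46, both under the gauge.

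Transcription factors known to act on the Nppa and Nppb genes were split, with 4 of 20 higher, 4 lower and a median of 0.01. The cardiac factors Nkx2-5 (0.51 ± 0.09), Srf (0.39 ± 0.07), Gata4 (0.35 ± 0.07) and Tead1 (0.26 ± 0.08) rose. The call of Tead1 was lost without any single array other than caAkt array 3 (adjusted p 0.0546 to 0.110). Its dimmer probe set rose by 0.40 ± 0.07, from 6.80, under the gauge, to 7.20. Hand2 fell by 0.76 ± 0.07, the repressor Jarid2 by 0.74 ± 0.10, Mef2a by 0.60 ± 0.08 and Gata6 by 0.51 ± 0.09. Of the dimmer Mef2a probe sets, those at -0.67, -0.62 and -0.57 were called lower and those at -0.35 and 0.03 were not called. Tbx5 (0.03 ± 0.15), Tbx20 (-0.02 ± 0.09), Mef2c (0.03 ± 0.10) and the repressor Rest (0.13 ± 0.09) were not called.

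**Figure D5:**
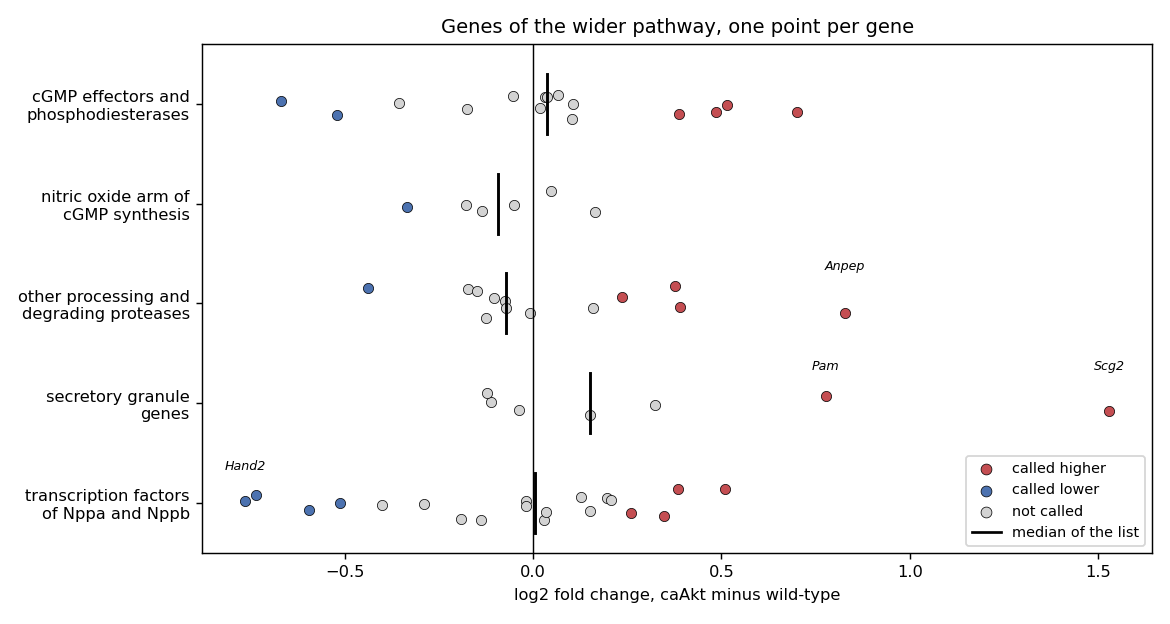
Log2 fold change (caAkt minus wild-type) of each measured gene in 5 lists around the natriuretic peptide system, with 1 point per gene, coloured by its call, and a bar at the list's median. The medians run from -0.09 to 0.15, and the points spread to both sides of 0 in every list.

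The genes with the profile most like a member's were found by the mean absolute difference, over the 6 arrays, between log2 values taken relative to each gene's own wild-type mean. For Nppa these were the matrix protein periostin, Postn (mean difference 0.09, log2 fold change 2.31), the collagen Col8a1 (0.10 and 2.49) and the myosin light chain Myl9 (0.13 and 2.55). Those closest to Nppb were the proteoglycan versican, Vcan (0.08 and 1.09), Anxa4 (0.08 and 1.17) and Mxra7 (0.09 and 1.10). Nearest to Npr3 were Shisa4 (0.05 and 1.26), annexin A1, Anxa1 (0.06 and 1.25), and the tubulin Tubb2a (0.08 and 1.36). The caAkt values of Nppa and Nppb lie near the top of the scale, so which genes come closest to them depends on compressed values. This likeness rests mostly on the size of the genotype difference, which all these genes share with the member they were matched to.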

How the data were processed

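The authors deposited 1 log2 value per probe set and array, made with RMA in the package affy, per the submitters' processing notes. Versions are not given in the sources. RMA gives all arrays nearly the same distribution, so a shift common to most genes would be lost. Of 45101 probe sets, 34945 carried a single gene symbol in the platform annotation, and each gene was taken at its probe set with the highest mean over the 6 arrays. The genotype term was tested in R 4.3.3 by limma 3.58.1 (lmFit, eBayes, two-sided, 4 residual degrees of freedom), with Benjamini-Hochberg adjustment over 18193 genes. Having 3 arrays per genotype limits how precise a value can be. The fit was also run on simulated data, with 200 genes changed and arrays drawn independently. That checks the fit itself and not the calls here, where 5183 genes were called.

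The 9 members and the lists of related and marker genes were chosen with earlier results of these data known. The text names all members with every probe set, up to 3 called genes of a list with the smallest p and all genes called where 5 or fewer were, atrial markers, chromosomal neighbours and the 3 genes most alike. Uncalled list genes and markers beyond this were chosen after their values were seen. Summed signals are sums of 2 to the power of the log2 values. A planned search of protein sequences was not run, and a pseudocount was not needed.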

Additional observations from a re-analysis of the deposited data

How the results depend on the processing

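The rises of Nppa, Nppb and Npr3 and the fall of Mme kept their direction and their call in every alternative that tested them: other variance models, averaged or plain probe sets, separate tests of each probe set, a filter on dim genes (which removed Mme, Nppc and Npr1), median centring, array weights, quantile normalization repeated, a replicate block, a threshold of 0.01, each array left out, and the atrial alternatives, which were added after seeing the data. The count of members that rose was 3 throughout. The count of members that fell went from 2 to 1 with the filter on dim genes, with median centring, at the threshold of 0.01 and with the array of highest summed atrial signal in each group left out (1 each), and ranged from 1 to 2 over the fits without single arrays. Corin was the member lost, except under the filter. Without wild-type array 1, Nppc took the place of Corin. Corin's log2 fold change was -0.42 with median centring (adjusted p = 0.0511) and -0.29 with the atrial arrays left out (0.130). Genes called over all genes numbered 5183, 3255 at the threshold of 0.01 and 3332 with the arrays of highest atrial signal left out. Called genes were higher in 56.5% of cases, 49.6% after repeated quantile normalization. The replicate numbers showed no clear pairing of the arrays. Deviations of same-numbered arrays correlated at 0.27, 0.03 and -0.12, and those of differently numbered arrays at -0.27 to 0.23. With the replicate block, 5141 genes were called, 3 members rose and 2 fell, and the calls of Myl7 (-1.36, adjusted p = 0.00180) and Myl4 (0.93, 0.0176) were gained. Signals near the top of the scale (Nppa, Nppb) and under the background gauge (Nppc, Npr1) limit what can be read.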
